A study of Mus musculus with 9 samples.

Results

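The 8 endothelial genes described here, Cdh5, Pecam1, Kdr, Flt1, Eng, Tie1, Tek and Erg, were chosen by name from a count table of 44806 entries, and each name occurred once. The table came from RNA-seq of 9 mouse tumours, with 3 libraries each for Lipo-TriTE, Lipo-BiTE and PBS. All 9 tumours were of MB49, a mouse bladder cancer line, carrying a HER2 overexpression genotype, so tumours given PBS carried it too. The labels do not spell out the 2 Lipo agents, and the sources used here give no dose, timing, host strain, age or sex. The design text speaks of sorted CD3+ T cells, whereas the labels name tumour tissue and the protocol starts from a frozen tumour with no sort. Whether each library is from its own animal is not stated, so a p-value here reflects only how much these libraries vary.

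Endothelial cells line blood vessels and are joined by adhesion proteins, VE-cadherin (Cdh5) and PECAM-1 (Pecam1, also called CD31). Their growth and survival run through receptor tyrosine kinases for VEGF (Kdr, Flt1) and for angiopoietins (Tek, with its relative Tie1), through the TGF-beta and BMP co-receptor endoglin (Eng), and through the ETS transcription factor Erg, which keeps endothelial genes active. Cdh5 is among the more endothelium-restricted of these genes, while Pecam1 is also made by platelets and many leukocytes, Erg also by some blood progenitors and Eng and Flt1 also by some macrophages. In a transplanted tumour the vessels come from the host.

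Kdr and Flt1, the 2 VEGF receptors, lie on the same chromosome, and their start regions are shown because the difference from PBS was positive for Kdr and negative for Flt1 in Lipo-TriTE tumours. The Flt1 difference did not pass the edgeR test (adjusted p = 0.086), and its libraries overlapped with PBS. The RefSeq windows run from 250 bases before to 50 bases after the start, on GRCm38.p6, and 6 of the 8 genes had one. The Kdr window is chr5:75978406-75978705 and the Flt1 window chr5:147725962-147726261, both on the minus strand. Capitals mark GGAAG, the core letters of an ETS factor site, or its reverse complement CTTCC.
Kdr: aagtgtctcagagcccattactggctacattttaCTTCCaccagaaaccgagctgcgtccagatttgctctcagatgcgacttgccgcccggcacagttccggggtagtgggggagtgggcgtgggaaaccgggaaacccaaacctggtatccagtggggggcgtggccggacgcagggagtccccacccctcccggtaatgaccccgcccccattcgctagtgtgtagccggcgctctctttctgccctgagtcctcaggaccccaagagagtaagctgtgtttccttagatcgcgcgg
Flt1: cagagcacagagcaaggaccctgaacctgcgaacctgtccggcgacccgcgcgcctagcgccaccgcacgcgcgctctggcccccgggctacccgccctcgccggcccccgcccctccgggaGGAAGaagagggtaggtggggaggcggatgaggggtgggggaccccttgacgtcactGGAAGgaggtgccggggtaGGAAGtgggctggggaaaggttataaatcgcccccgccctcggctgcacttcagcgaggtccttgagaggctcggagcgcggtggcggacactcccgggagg
The Kdr window held 1 match and the Flt1 window 3, against 7 in Tie1, 2 in Eng and 0 in Tek, and 0, 1 and 1 in the Erg windows. At least 1 match was present in 71.4% of 32851 such windows and at least 3 in 16.5%, so these letters are common. A match is a string of letters and was not tested as a binding site.

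Library totals were 13152783 to 20273548 counts, at which 3 counts correspond to 0.146 to 0.237 CPM (counts scaled to library totals, after adjustment by the trimmed mean of M values, TMM). That floor covers counting error only. Genes known as endothelial markers were detected at very unequal levels, and several were at or near 0. In PBS tumours Cdh5 had 125.5 to 150.7 CPM, Flt1 13.3 to 22.0, Eng 7.90 to 12.0 and Pecam1 5.19 to 5.57. Kdr had 7 to 20 counts there, Tie1 21 to 30, Tek 0 to 6 and Erg 0 in every PBS library. Of 12 other endothelial markers, 7 (Emcn, Esam, Robo4, Clec14a, Cldn5, Mmrn2 and Nos3) stayed under 20 counts in every library. Clec14a, a vessel-surface lectin, had 0 counts in 9 of 9 libraries, and Cldn5, an endothelial tight-junction protein, had 0 in 6 of 9. Plvap, the protein of endothelial diaphragms, reached 13.0 to 89.9 CPM and Ecscr, an endothelial surface protein, 14.2 to 37.3 CPM. In bulk tumour, fewer cells of a type and less RNA per cell cannot be told apart. Which cells, endothelial, tumour or other, made the RNA of Cdh5, Plvap and Ecscr was not tested.

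**Figure D1:**
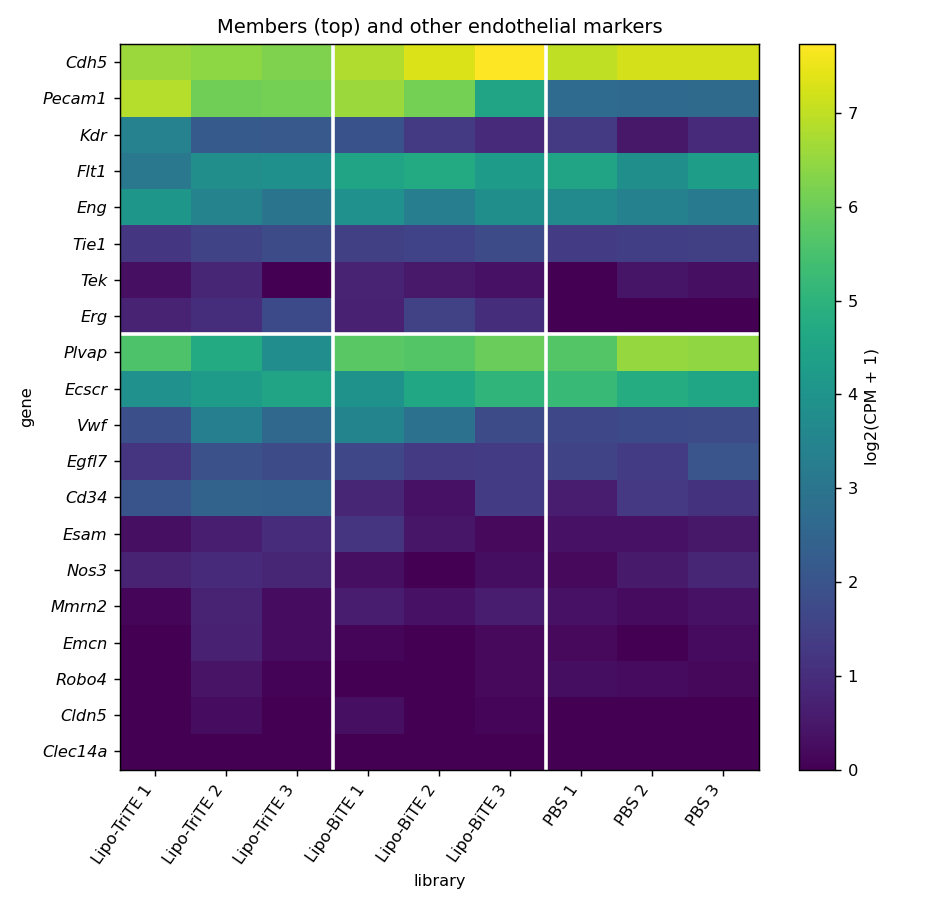
Level of each gene (rows, the 8 genes above the white line and 12 other endothelial markers below it) in each of 9 libraries (columns), coloured by log2(CPM + 1), dark for low. Cdh5, Pecam1 and Plvap stand out as bright rows, Pecam1 is dark only in the 3 PBS libraries, and Emcn, Robo4, Cldn5 and Clec14a are dark throughout.

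Per kilobase of deposited gene length, the level of Cdh5 was the highest of the 8 genes in 9 of 9 libraries, with means of 21.1, 40.5 and 35.6 CPM per kb in Lipo-TriTE, Lipo-BiTE and PBS tumours. Pecam1 came next in Lipo-TriTE and Lipo-BiTE tumours, at 13.8 and 10.1 CPM per kb, and was at 0.882 in PBS tumours, below Eng at 2.43 and Flt1 at 1.34. Kdr, Tie1 and Erg lay at 0.387 to 0.622 CPM per kb in Lipo-TriTE tumours, a range that their spreads cover, and Tek was the lowest gene there at 0.0710. Expressed as a share of the Cdh5 level per kilobase in the same library, Pecam1 was 51.4% to 81.5% in Lipo-TriTE, 6.75% to 54.6% in Lipo-BiTE and 2.26% to 2.91% in PBS tumours. The 8 genes thus did not keep a common proportion across the groups. Cdh5 and Pecam1 together made 78.0% to 86.5% of the summed CPM of the 8 genes.

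Against PBS, Lipo-TriTE tumours had more Pecam1, Kdr and Erg and less Cdh5, with Flt1, Eng and Tie1 not passing the test. Of the 7 genes that passed the filter on low counts, 3 were called higher and 1 lower by the edgeR quasi-likelihood test at an adjusted p under 0.05, and Tek was not tested. Erg had 0 counts in every PBS library and passed that filter through the Lipo libraries alone. Over all 16596 genes tested, 18.9% were called higher and 14.8% lower, and 33.6% in either direction. The median log2 fold change of the 7 genes was 0.19, beside 0.00 over all genes. Those 4 genes also had libraries that did not overlap with PBS, which held for 49.5% of all genes (26% above PBS and 23.4% below).

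Against PBS, Lipo-BiTE tumours had more Pecam1 and Erg. The edgeR test called these 2 of 7 genes higher and 0 lower, beside 13.8% of all genes higher, 3.22% lower and 17% in either direction. Erg, with 0 counts in every PBS library, passed the filter on low counts through the Lipo libraries alone. It did not pass when only Lipo-BiTE and PBS were fitted. At an unadjusted p under 0.05, and by DESeq2, the number lower was also 0. The same 2 genes had libraries all above PBS, as did 22.7% of all genes, and 42.1% did not overlap in either direction. The median log2 fold change was 0.31, beside -0.02 over all genes. Scaled by total counts, the calls over all genes were 2079 higher and 988 lower in place of 2283 and 534. Both comparisons use the same PBS libraries, so they are not independent of each other.

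Between the agents, Lipo-TriTE tumours had less Cdh5 than Lipo-BiTE tumours, and no other of the 7 genes passed the edgeR test. Calls were 0 higher and 1 lower, beside 4.88% and 5.21% of all genes and 10.1% in either direction. At an unadjusted p under 0.05 there was 1 higher (Kdr) and 2 lower (Cdh5 and Flt1), and DESeq2 called these 3. The percentages above are for the adjusted edgeR calls. The share of all genes at an unadjusted p under 0.05 is not given here, so these 3 genes were not weighed against it. Those 3 genes had non-overlapping libraries, as did 30.5% of all genes (16.1% above and 14.4% below). Scaled by total counts, the calls over all genes were 1099 higher and 451 lower in place of 810 and 865. The median log2 fold change was -0.10, beside -0.01 over all genes.

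**Figure D2:**
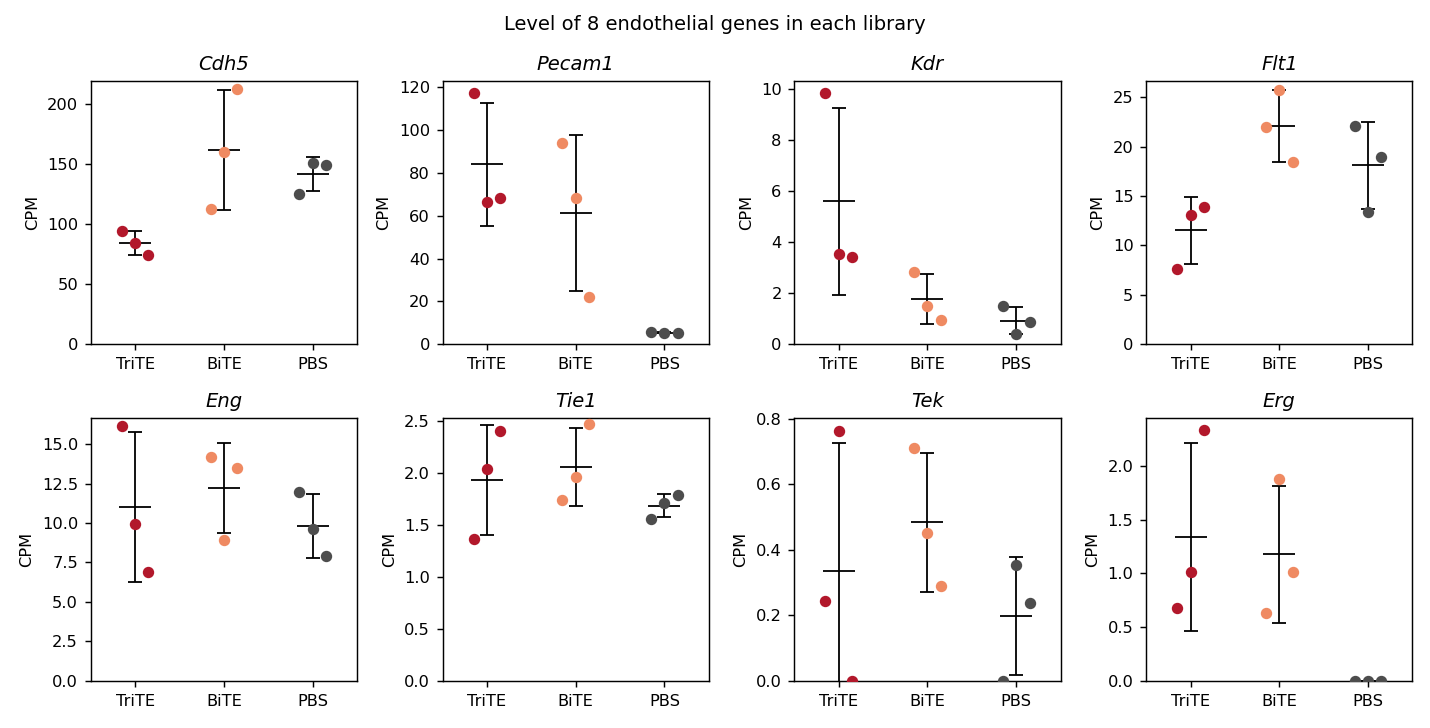
CPM of each gene in each library, in Lipo-TriTE (TriTE, red), Lipo-BiTE (BiTE, orange) and PBS (grey) tumours, with the horizontal bar at the mean and the whiskers at 1 SD (n = 3 each), on axes that start at 0. Pecam1 and Erg lie above all 3 PBS libraries in both Lipo groups, Cdh5 lies lowest in Lipo-TriTE, and Kdr in Lipo-TriTE 1 stands at 9.86 CPM.

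Cdh5 encodes VE-cadherin, the adhesion molecule of endothelial adherens junctions (chr8:110100221-110146622 in the deposited C57BL/6NJ gene models, plus strand). Its level was 94.2, 84.6 and 73.9 CPM in Lipo-TriTE, 112.7, 159.8 and 212.3 in Lipo-BiTE and 125.5, 150.7 and 148.9 in PBS tumours. All 3 Lipo-TriTE libraries lay below every other library, and Lipo-BiTE spanned the PBS range on both sides. Cdh5 averaged 84.2 ± 10.1 CPM in Lipo-TriTE and 141.7 ± 14.1 in PBS tumours (SD, n = 3 each), a log2 fold change of -0.75 ± 0.21 (SE, edgeR adjusted p = 0.018). Against Lipo-BiTE (161.6 ± 49.8 CPM) the log2 fold change was -0.94 ± 0.21 (edgeR adjusted p = 0.02), and Lipo-BiTE against PBS gave 0.19 ± 0.21 (edgeR adjusted p = 0.56). The call against PBS was lost on leaving out PBS 2, PBS 3, Lipo-TriTE 2 or Lipo-TriTE 3 (edgeR adjusted p of 0.059 to 0.069), and the call against Lipo-BiTE on leaving out Lipo-BiTE 2, Lipo-BiTE 3, Lipo-TriTE 2 or Lipo-TriTE 3 (0.062 to 0.072).

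Pecam1 encodes PECAM-1, a homophilic adhesion molecule of endothelial junctions, platelets and leukocytes (chr11:113357138-113481843, minus strand). It measured 117.2, 66.4 and 68.4 CPM in Lipo-TriTE, 93.9, 68.1 and 21.9 in Lipo-BiTE and 5.57, 5.19 and 5.35 in PBS tumours. Every library of both Lipo groups was above every PBS library, and Lipo-BiTE 3 was the lowest of those 6. Pecam1 averaged 84.0 ± 28.8 CPM in Lipo-TriTE, 61.3 ± 36.5 in Lipo-BiTE and 5.37 ± 0.188 in PBS tumours (SD, n = 3 each). The fitted level was 15.6-fold that of PBS in Lipo-TriTE (log2 3.97 ± 0.48 SE, edgeR adjusted p = 0.00026) and 11.4-fold in Lipo-BiTE (3.51 ± 0.48, edgeR adjusted p = 0.00099). Over the alternatives run, these folds ranged from 12.7 to 17.5 and from 8.40 to 14.8. Between Lipo-TriTE and Lipo-BiTE the log2 fold change was 0.46 ± 0.42 (edgeR adjusted p = 0.54). Over the 9 libraries, the log2 CPM of Pecam1 and Cdh5 had a Pearson r of -0.52, a description over libraries that share their groups.

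Leukocyte marker lists differed between the same libraries, and their part in the Pecam1 values was not tested. The summed CPM of 6 T cell markers (Cd3d, Cd3e, Cd3g, Cd2, Cd5 and Cd28) was 422.3 to 707.6 in Lipo-TriTE, 95.7 to 171.8 in Lipo-BiTE and 23.9 to 27.1 in PBS tumours. All 6 were called higher by edgeR in each of the 3 comparisons. Of all genes, 18.9% were called higher in Lipo-TriTE against PBS, 13.8% in Lipo-BiTE against PBS and 4.88% between Lipo-TriTE and Lipo-BiTE. Macrophage markers summed to 604.4 to 814.9 CPM in Lipo-TriTE, 841.9 to 1855.1 in Lipo-BiTE and 227.9 to 269.4 in PBS tumours, with 8 of 9 called higher against PBS in each Lipo group. The remaining one, Mertk, a receptor for apoptotic cells, was called lower in Lipo-TriTE (46.1 to 80.4 against 109 to 132 CPM, log2 -0.89 ± 0.20, edgeR adjusted p = 0.007) and not in Lipo-BiTE (-0.40 ± 0.20, edgeR adjusted p = 0.19). Neutrophil markers summed to 1278.9 to 4263.2, 1116.7 to 6200.0 and 130.9 to 294.1 CPM in the same order of groups, with 6 of 6 called higher against PBS in both. The call of the neutrophil marker Ly6g held in 5 of 13 alternatives in Lipo-BiTE and 11 of 13 in Lipo-TriTE. That of the macrophage marker Mrc1 held in 10 of 13 and 9 of 13. B cell markers reached 321.3 to 892.2 CPM in Lipo-TriTE tumours, 9.2 to 16.3 in Lipo-BiTE and 5.9 to 10.1 in PBS, and mast cell markers 420.3 to 508.9, 70.3 to 145.9 and 48.1 to 116.8 CPM. Lipo-BiTE 3, lowest of its group in Pecam1, was also lowest of its group in the T cell, B cell and neutrophil sums, but lay between the others for macrophages (922.2 CPM) and was the highest for mast cells (145.9 CPM). Platelet markers summed to 29.8 to 41.7 CPM in Lipo-TriTE, 22.4 to 41.7 in Lipo-BiTE and 30.4 to 37.7 in PBS tumours. Of 12 platelet markers 6 were tested and edgeR called none, while at an unadjusted p under 0.05, and by DESeq2, 1 was higher in Lipo-TriTE against PBS.

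**Figure D3:**
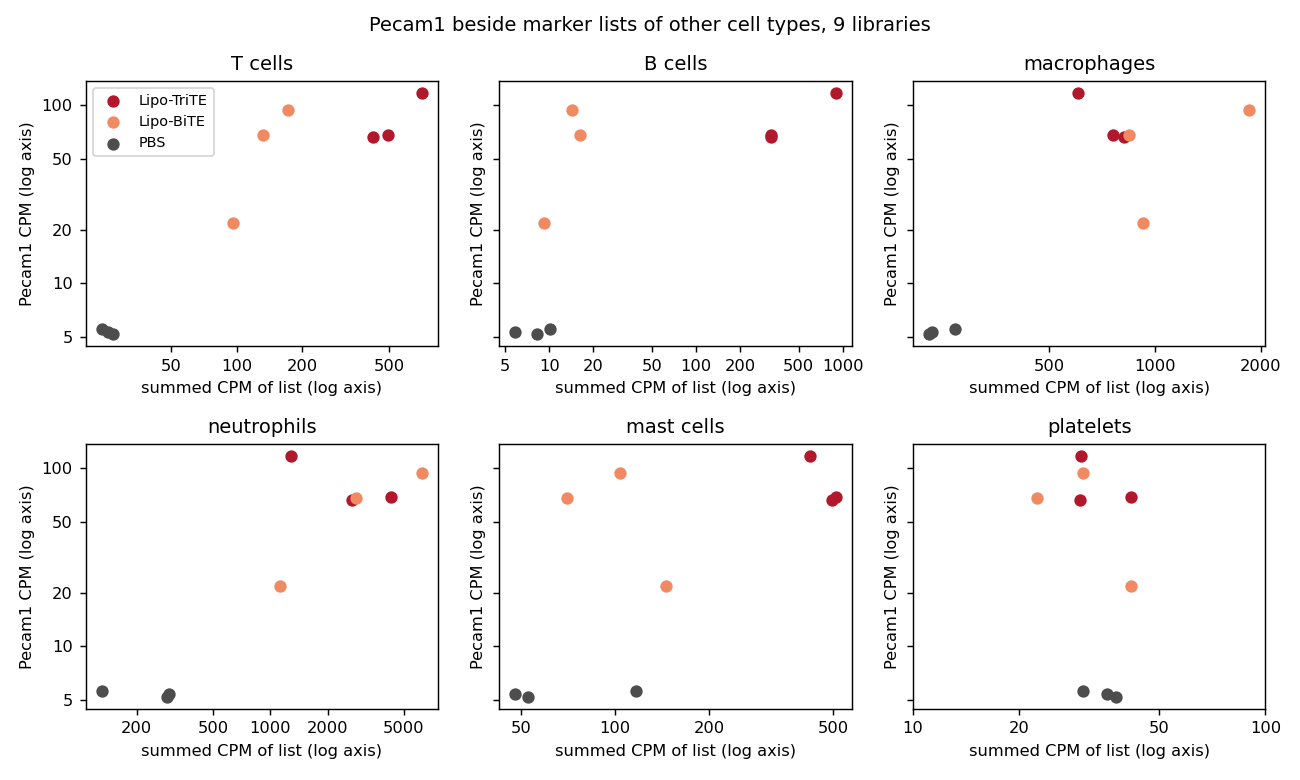
Pecam1 CPM (vertical, log axis) against the summed CPM of 6 marker lists (horizontal, log axis, each panel with its own range) in 9 libraries, with Lipo-TriTE in red, Lipo-BiTE in orange and PBS in grey. The 3 PBS libraries lie lowest in Pecam1 and in the T cell, macrophage and neutrophil sums, while the platelet sums of the 3 groups overlap.

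Kdr encodes VEGFR2, the main signalling receptor for VEGF-A (chr5:79160881-79210489, minus strand). Its level was 9.86, 3.55 and 3.43 CPM in Lipo-TriTE, 2.84, 1.50 and 0.945 in Lipo-BiTE and 1.48, 0.413 and 0.891 in PBS tumours, from 203, 56 and 53 counts, 36, 20 and 13 counts, and 20, 7 and 15 counts. The Lipo-TriTE libraries lay above all others, with Lipo-TriTE 1 far above the other two, and Lipo-BiTE overlapped with PBS. Kdr was 6.1-fold higher in Lipo-TriTE than in PBS tumours (5.62 ± 3.67 against 0.930 ± 0.537 CPM, SD, n = 3 each; log2 2.61 ± 0.63 SE, edgeR adjusted p = 0.0089). Without Lipo-TriTE 1 the fold was 3.81 (edgeR adjusted p = 0.041). Lipo-TriTE 1 was also the highest library in the T cell and B cell sums, and the lowest of its group in the macrophage, neutrophil and mast cell sums. Lipo-BiTE against PBS gave a log2 fold change of 0.93 ± 0.63 (edgeR adjusted p = 0.34), and Lipo-TriTE against Lipo-BiTE gave 1.68 ± 0.60 (edgeR adjusted p = 0.1).

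Flt1 encodes VEGFR1, which binds VEGF-A tightly and signals weakly, and also binds PlGF (chr5:158843447-159036006, minus strand). It measured 7.62, 13.1 and 13.9 CPM in Lipo-TriTE, 21.9, 25.7 and 18.5 in Lipo-BiTE and 22.0, 13.3 and 18.9 in PBS tumours. The Lipo-TriTE libraries lay below all Lipo-BiTE libraries and overlapped with PBS through PBS 2. No comparison passed the edgeR test, with log2 fold changes of -0.65 ± 0.27 for Lipo-TriTE and 0.29 ± 0.27 for Lipo-BiTE against PBS (adjusted p of 0.086 and 0.49) and -0.94 ± 0.27 between Lipo-TriTE and Lipo-BiTE (0.052). Over the 9 libraries, Kdr and Flt1 had a Pearson r of -0.54 and of -0.04 within groups.

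Eng encodes endoglin, the co-receptor that presents BMP9 and BMP10 to ALK1 (chr2:32067187-32106035, plus strand). It measured 16.2, 9.96 and 6.87 CPM in Lipo-TriTE, 14.2, 8.95 and 13.5 in Lipo-BiTE and 12.0, 9.62 and 7.90 in PBS tumours, and the 3 groups overlapped. Its log2 fold change was 0.17 ± 0.32 in Lipo-TriTE against PBS (edgeR adjusted p = 0.72) and 0.31 ± 0.33 in Lipo-BiTE against PBS (edgeR adjusted p = 0.54). Between the Lipo groups it was -0.15 ± 0.32 (edgeR adjusted p = 0.83).

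Tie1 encodes an orphan receptor that modulates TIE2 (chr4:124092229-124111097, minus strand), and Tek encodes TIE2, the angiopoietin receptor (chr4:98419832-98577085, plus strand). Tie1 measured 1.36, 2.03 and 2.40 CPM in Lipo-TriTE, 1.74, 1.96 and 2.47 in Lipo-BiTE and 1.56, 1.71 and 1.78 in PBS tumours, from 21 to 37 counts per library, with overlapping groups. Its log2 fold changes were 0.19 ± 0.41 for Lipo-TriTE and 0.29 ± 0.41 for Lipo-BiTE against PBS, with edgeR adjusted p-values of 0.75 and 0.67, and -0.10 ± 0.41 between the Lipo groups (0.92), which became 0.02 when scaled by total counts. Tek had 5, 12 and 0 counts in Lipo-TriTE, 9, 6 and 4 in Lipo-BiTE and 0, 6 and 4 in PBS libraries. That is at most 0.762 CPM, too few for the filter, and a difference was not detectable at this depth.

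Erg encodes an ETS-family transcription factor that maintains endothelial identity (chr16:99716832-99960319, minus strand). It had 14, 16 and 36 counts in Lipo-TriTE (0.680, 1.02 and 2.33 CPM), 8, 25 and 14 in Lipo-BiTE (0.631, 1.88 and 1.02 CPM) and 0 counts in all 3 PBS libraries. Every Lipo library thus held counts and no PBS library did, while the Lipo groups overlapped with each other. Erg passed the filter on low counts through the Lipo libraries alone. Taking 3 counts over the PBS group as the floor, the bound on the Erg fold was 20.1 in Lipo-TriTE and 18.6 in Lipo-BiTE, from pooled counts. It covers counting error in PBS only and leaves out the spread between the Lipo libraries. The edgeR adjusted p-values, 0.0031 and 0.0063, are no separate support, since Erg was tested only because of its counts in the Lipo libraries. The first bound was 12.9, 12.9 or 13.0 without PBS 2, PBS 3 or Lipo-TriTE 3, and the second was 12.0 without PBS 2 or without PBS 3. Lipo-TriTE against Lipo-BiTE gave a log2 fold change of 0.18 ± 0.73 (edgeR adjusted p = 0.91).

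**Figure D4:**
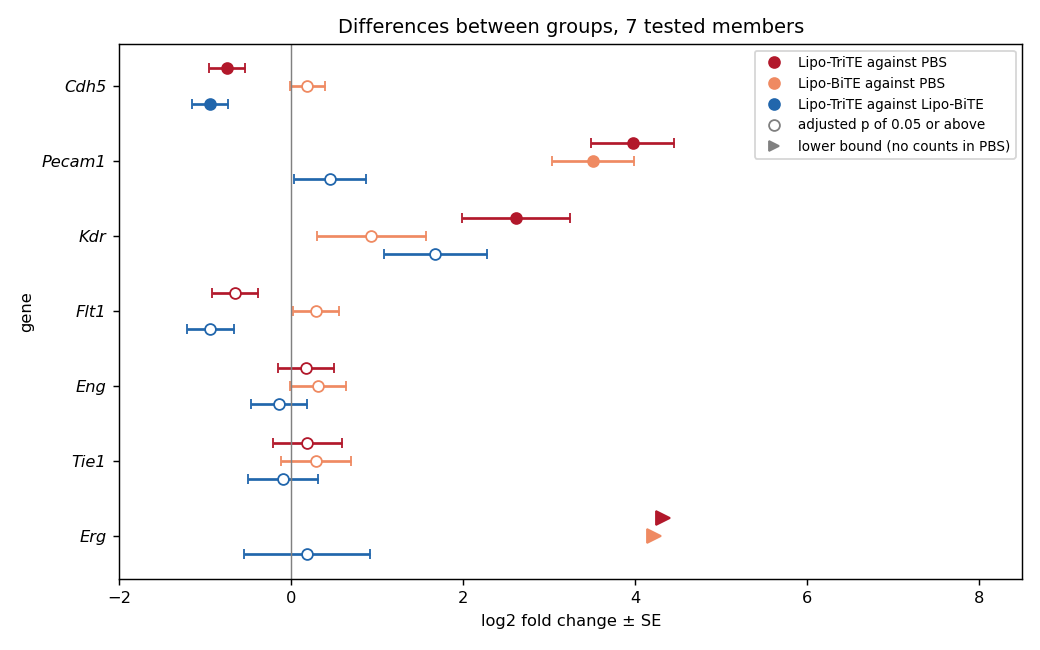
Log2 fold change (horizontal) of the 7 tested genes in Lipo-TriTE against PBS (red), Lipo-BiTE against PBS (orange) and Lipo-TriTE against Lipo-BiTE (blue), with whiskers of 1 SE, open circles for an adjusted p of 0.05 or above, and triangles for the lower bounds of Erg. Pecam1 and Erg lie far to the right in both comparisons with PBS, and Cdh5 lies left of 0 in both comparisons of Lipo-TriTE.

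For the lists that follow, the shares over all genes are the measure to set beside the calls. By edgeR 18.9% of all genes were higher and 14.8% lower in Lipo-TriTE against PBS. The shares were 13.8% and 3.22% for Lipo-BiTE against PBS, and 4.88% and 5.21% between Lipo-TriTE and Lipo-BiTE. Transcription factors known from endothelium were called in both directions, as all genes were. Of 16 listed, 10 were tested, and edgeR called 4 higher and 2 lower in Lipo-TriTE against PBS. It called 5 higher and 0 lower for Lipo-BiTE against the same PBS libraries, and 2 higher and 2 lower between Lipo-TriTE and Lipo-BiTE, with median log2 fold changes of 1.10, 0.81 and -0.05. For Lipo-BiTE against PBS, the number lower was also 0 at an unadjusted p under 0.05 and by DESeq2. Fli1, the ETS factor closest to Erg and also a blood cell factor, had 39.1 to 46.7 CPM in Lipo-TriTE, 13.1 to 43.1 in Lipo-BiTE and 2.00 to 2.97 in PBS tumours (log2 4.02 ± 0.40 in Lipo-TriTE and 3.31 ± 0.40 in Lipo-BiTE, edgeR adjusted p of 9.1e-05 and 0.00076). Mef2c, a factor of endothelium, muscle and B cells, had 42.1 to 74.4, 7.64 to 15.7 and 1.84 to 2.30 CPM in the same groups, and also rose in Lipo-TriTE against Lipo-BiTE (log2 2.29 ± 0.30, edgeR adjusted p = 0.0026). Nr2f2, the venous identity factor COUP-TFII, fell by 1.16 on the log2 scale in Lipo-TriTE against PBS (17.4 to 21.9 against 39.8 to 48.8 CPM, edgeR adjusted p = 0.00076). Between the Lipo groups, the number lower was 0 without Lipo-BiTE 2 and 1 without Lipo-BiTE 3, Lipo-TriTE 2 or Lipo-TriTE 3. Etv2 and the Sox factors of endothelium were near 0, with Sox17 at 0 in 7 of 9 libraries, Sox7 at 0 in 6, and at most 4 counts of Sox18.

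Among ligands and co-receptors of the VEGF system, 7 of 8 listed genes were tested. In Lipo-TriTE against PBS edgeR called 0 higher and 3 lower, while 1 was higher at an unadjusted p under 0.05 and by DESeq2 (median log2 0.14). Vegfb, a ligand of VEGFR1, had 12.2 to 19.5 CPM in Lipo-TriTE and 27.2 to 27.3 in PBS tumours (log2 -0.79 ± 0.19, edgeR adjusted p = 0.0093). Vegfc and Vegfd, ligands of the lymphatic receptor VEGFR3, were the other two, at log2 -1.04 and -0.93 (edgeR adjusted p of 0.012 and 0.031). The Vegfc call was lost without PBS 2 or PBS 3 (0.058 and 0.062), and the Vegfd call without any 1 of PBS 1, PBS 2, PBS 3, Lipo-TriTE 2 or Lipo-TriTE 3 (0.06 to 0.13). The number higher was 1 without PBS 1, PBS 2 or Lipo-TriTE 3. In Lipo-BiTE against PBS, 1 was called higher and 0 lower (median 0.10), and without Lipo-BiTE 3 there was 1 lower. The gene called was Pgf, which encodes PlGF (log2 2.03 ± 0.53, edgeR adjusted p = 0.025), and its call was lost without any 1 of PBS 1, PBS 2, PBS 3, Lipo-BiTE 1 or Lipo-BiTE 2 (0.057 to 0.15). With all libraries, 1 was lower at an unadjusted p under 0.05 and 0 by DESeq2. In Lipo-TriTE against Lipo-BiTE, 0 were called higher, also at an unadjusted p under 0.05 and by DESeq2, and 1 lower (median -0.17), which was lost without Lipo-BiTE 2, Lipo-BiTE 3, Lipo-TriTE 1 or Lipo-TriTE 3. VEGF-A itself appears only as an unnamed entry, MGP_C57BL6NJ_G0024205, whose deposited description names it, and it was picked after its values were seen. It measured 59.7, 78.8 and 90.6 CPM in Lipo-TriTE, 233.2, 257.8 and 179.6 in Lipo-BiTE and 92.9, 132.1 and 137.5 in PBS tumours. Lipo-TriTE lay below every other library and Lipo-BiTE above. Lipo-TriTE was lower than Lipo-BiTE (log2 -1.55 ± 0.21, edgeR adjusted p = 0.0028). Against PBS the log2 fold change was -0.66 ± 0.21 in Lipo-TriTE and 0.89 ± 0.21 in Lipo-BiTE (edgeR adjusted p of 0.031 and 0.015), and these calls were lost without Lipo-TriTE 1, Lipo-TriTE 2, PBS 2 or PBS 3 (0.074 to 0.11) and without Lipo-BiTE 2 or PBS 1 (0.066 and 0.054).

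For the TIE receptors, 2 of 4 listed genes were tested, Angpt1 and Angpt2. Angpt2, the context-dependent antagonist of TIE2, had 12.8, 17.6 and 14.3 CPM in Lipo-TriTE, 16.3, 21.1 and 24.9 in Lipo-BiTE and 32.1, 34.8 and 29.7 in PBS tumours. Both Lipo groups lay below all PBS libraries, and the edgeR test called Lipo-TriTE against PBS (log2 -1.11 ± 0.20, adjusted p = 0.0021) and not Lipo-BiTE against PBS (-0.63 ± 0.20, adjusted p = 0.052). Lipo-BiTE against PBS was called without Lipo-BiTE 3, when scaled by total counts, and by DESeq2.

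Around endoglin, 10 of 12 listed genes were tested. Calls by edgeR were 4 higher and 3 lower for Lipo-TriTE and 4 higher and 1 lower for Lipo-BiTE, each against PBS, and 0 higher and 1 lower between Lipo-TriTE and Lipo-BiTE, with medians of -0.06, 0.45 and -0.46. In the last comparison 1 was higher at an unadjusted p under 0.05 and 0 by DESeq2, and the number lower was 2 without Lipo-BiTE 1 and 0 without Lipo-BiTE 2 or Lipo-TriTE 1. For Lipo-BiTE against PBS the number higher was 2 without PBS 1, PBS 3, Lipo-BiTE 1 or Lipo-BiTE 2, and the number lower 0 without PBS 2, PBS 3 or Lipo-BiTE 2. Acvrl1, which encodes ALK1, had 23.3 to 28.9 CPM in Lipo-TriTE, 19.4 to 63.1 in Lipo-BiTE and 5.23 to 8.91 in PBS tumours (log2 1.95 ± 0.38 in Lipo-TriTE and 2.53 ± 0.39 in Lipo-BiTE, edgeR adjusted p of 0.0036 and 0.0017). Id2, an inhibitor of helix-loop-helix factors that lymphocytes also use, rose by 3.04 ± 0.29 and 2.67 ± 0.29 on the log2 scale (edgeR adjusted p of 7.3e-05 and 0.00076). Bmpr2, the type II receptor of this pathway, fell by 0.91 on the log2 scale in Lipo-TriTE (66.7 to 103 against 147 to 158 CPM, edgeR adjusted p = 0.0023).

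Of the sprouting and Notch genes, 9 of 10 were tested. Lipo-TriTE tumours had 1 higher and 3 lower against PBS, and 0 higher and 3 lower against Lipo-BiTE, with medians of 0.00 and -0.70; in the second comparison the number higher was also 0 at an unadjusted p under 0.05 and by DESeq2. Jag1, a Notch ligand, had 24.5, 31.2 and 32.1 CPM in Lipo-TriTE, 53.0, 59.9 and 63.6 in Lipo-BiTE and 65.5, 61.6 and 68.0 in PBS tumours, and Unc5b, a guidance receptor of tip cells, 99.3 to 135, 207 to 306 and 198 to 333 CPM. Both were lower in Lipo-TriTE than in PBS tumours (log2 -1.15 ± 0.15 and -1.25 ± 0.22, edgeR adjusted p of 0.00032 and 0.0018) and than in Lipo-BiTE tumours (-1.01 ± 0.15 and -1.16 ± 0.22, edgeR adjusted p of 0.0045 and 0.011). Cxcr4, a chemokine receptor of tip cells and of most leukocytes, was the gene that was higher, at 152 to 202 CPM in Lipo-TriTE and 9.21 to 9.65 in PBS tumours. Without Lipo-TriTE 3, 2 genes were called higher in Lipo-TriTE against PBS. In Lipo-BiTE against PBS, Cxcr4 and Pdgfb were called higher and 0 genes lower, with 0 lower also at an unadjusted p under 0.05 and by DESeq2 (median 0.32).

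Among 8 leukocyte adhesion genes of endothelium, 6 were tested, with 3 called higher and 1 lower for Lipo-TriTE and 2 higher and 0 lower for Lipo-BiTE, each against PBS, and 1 higher and 0 lower between Lipo-TriTE and Lipo-BiTE (medians 1.59, 1.05 and -0.46). The number lower in the second comparison was also 0 at an unadjusted p under 0.05 and by DESeq2, and in the third it was 1 and 0. Between the Lipo groups, the number higher was 0 without Lipo-BiTE 2, and the number lower 1 without Lipo-BiTE 1 or Lipo-BiTE 3. Icam1, a ligand of leukocyte integrins also made by leukocytes and tumour cells, had 52.0 to 95.2 CPM in Lipo-TriTE, 41.5 to 119 in Lipo-BiTE and 3.12 to 6.26 in PBS tumours (log2 3.92 ± 0.42 in Lipo-TriTE and 4.06 ± 0.42 in Lipo-BiTE, edgeR adjusted p of 0.00013 and 0.00076). Sele, which encodes E-selectin, went the other way in Lipo-TriTE, at 48.0, 79.6 and 78.4 CPM against 115, 140 and 149 in PBS tumours (log2 -0.98 ± 0.21, edgeR adjusted p = 0.0064).

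Among the other 12 endothelial markers, 6 were tested, with 1 higher and 1 lower for Lipo-TriTE and 0 in either direction for Lipo-BiTE, each against PBS (1 higher and 0 lower at an unadjusted p under 0.05 and by DESeq2), and 1 higher and 0 lower between Lipo-TriTE and Lipo-BiTE (1 lower at an unadjusted p under 0.05 and 0 by DESeq2). The medians were 0.34, -0.34 and 0.07. Plvap was lower in Lipo-TriTE tumours, at 47.2, 25.6 and 13.0 CPM against 49.7, 89.9 and 87.4 in PBS tumours (log2 -1.40 ± 0.39, edgeR adjusted p = 0.02), a call lost without PBS 2, PBS 3 or Lipo-TriTE 2 (0.066 to 0.074). Cd34, also a marker of blood progenitors and fibroblasts, was higher (3.01 to 4.57 against 0.520 to 1.42 CPM, log2 1.91, edgeR adjusted p = 0.026), a call lost without PBS 1, PBS 3, Lipo-TriTE 2 or Lipo-TriTE 3 (0.065 to 0.07). The Cd34 call between the Lipo groups (log2 2.13, edgeR adjusted p = 0.045) was lost with only 2 groups fitted and without any 1 of Lipo-BiTE 1, Lipo-BiTE 2, Lipo-TriTE 1, Lipo-TriTE 2 or Lipo-TriTE 3 (0.052 to 0.14). A count of 0 became 1 for the number higher in Lipo-BiTE against PBS without Lipo-BiTE 3 and for the number lower between the Lipo groups without Lipo-TriTE 1, and the number higher in Lipo-TriTE against PBS was 2 without Lipo-TriTE 1.

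Of 10 mural cell genes, 7 were tested, and edgeR called 2 higher and 1 lower in Lipo-TriTE against PBS (median log2 -0.17). Pdgfrb, the pericyte PDGF receptor, also made by fibroblasts, was lower, at 40.2 to 61.2 against 87.8 to 148 CPM (log2 -1.27 ± 0.24, edgeR adjusted p = 0.0027). Kcnj8, a pericyte potassium channel, was higher at 1.62 to 2.72 against 0.148 to 0.531 CPM (7.51-fold, log2 2.91 ± 0.64, edgeR adjusted p = 0.0058; 13.1-fold without PBS 2). Notch3, a Notch receptor of mural cells, was higher as well (log2 2.53 ± 0.74, edgeR adjusted p = 0.022), a call lost without Lipo-TriTE 1 or Lipo-TriTE 2 (0.051 and 0.07). The mural genes called thus lay in both directions, as did all genes in that comparison (18.9% higher and 14.8% lower). For Lipo-BiTE against PBS edgeR called 0 (0 higher and 2 lower at an unadjusted p under 0.05, 0 and 1 by DESeq2, median -0.55), with 1 lower without Lipo-BiTE 3. Between Lipo-TriTE and Lipo-BiTE it also called 0 (3 higher and 1 lower unadjusted, 2 and 0 by DESeq2, median 0.50), with 1 lower without Lipo-BiTE 1.

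Of 6 high endothelial venule genes, 3 were tested, with 1 higher and 1 lower in Lipo-TriTE against PBS (median -1.16). Fut7, a fucosyltransferase of selectin ligands that leukocytes also use, had 2.92 to 6.99 against 0.295 to 0.891 CPM (log2 3.13 ± 0.61, edgeR adjusted p = 0.0029). Chst2, a sulfotransferase of the same ligands, had 31.2 to 60.0 against 80.2 to 127 CPM (log2 -1.24 ± 0.27, edgeR adjusted p = 0.0061). Fut7 was also called in Lipo-BiTE against PBS (1.45 to 4.81 CPM, log2 2.27 ± 0.61, edgeR adjusted p = 0.026), a call lost without PBS 2, PBS 3 or Lipo-BiTE 1 (0.079 to 0.14), and 0 were lower there, also unadjusted and by DESeq2. Between the Lipo groups edgeR called 0 (0 higher and 1 lower at an unadjusted p under 0.05, 0 by DESeq2), with 1 lower without Lipo-BiTE 1. Glycam1, Chst4 and Madcam1 had at most 3 counts in any library. Of 7 lymphatic endothelial genes, 6 were in the table and 4 were tested, also with 1 higher and 1 lower in Lipo-TriTE against PBS (median 2.04). Reln, a secreted glycoprotein of lymphatic endothelium and neurons, was higher (log2 2.36 ± 0.68, edgeR adjusted p = 0.021; lost without PBS 2, PBS 3 or Lipo-TriTE 2, at 0.06 to 0.072; 8.74-fold in place of 5.13-fold without PBS 1), and Pdpn, also made by fibroblasts and tumour cells, was lower (log2 -0.91 ± 0.32, edgeR adjusted p = 0.049), a call lost without any 1 of the 6 libraries (0.051 to 0.13). Reln was also called in Lipo-TriTE against Lipo-BiTE (edgeR adjusted p = 0.015; 0.07 without Lipo-BiTE 2), with 0 lower, also unadjusted and by DESeq2. For Lipo-BiTE against PBS 0 of the 4 were called, also at an unadjusted p under 0.05 and by DESeq2. Prox1, the lymphatic identity factor, had at most 6 counts.

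Fibroblast markers summed to 887.3 to 1397 CPM in Lipo-TriTE, 1306 to 2221 in Lipo-BiTE and 1985 to 3027 in PBS tumours, with 3 of 7 and 4 of 7 called lower against PBS. For Lipo-BiTE the number was 1 without PBS 2, PBS 3 or Lipo-BiTE 2 and 2 without Lipo-BiTE 1. Most of the fibroblast sum was Col3a1, at 835.1 to 2836 CPM over the 9 libraries. Col3a1 was called lower against PBS in Lipo-TriTE and not in Lipo-BiTE. Dcn, Lum and Fap reached at most 3.07, 2.15 and 7.72 CPM and were not called in Lipo-TriTE against PBS. Epithelial markers, of which 4 of 5 were tested, summed to 374.6 to 620.9, 557.6 to 757.2 and 845.8 to 906.8 CPM in the same order of groups. Krt8 and Krt18 made most of the epithelial sum, at 158.7 to 478.8 and 156.3 to 422.4 CPM over the 9 libraries. Within that list the genes called lay in both directions in Lipo-TriTE against PBS, with the keratins Krt8 (log2 -0.92 ± 0.22, edgeR adjusted p = 0.0098) and Krt18 (-0.78 ± 0.22, edgeR adjusted p = 0.018; 0.061 without PBS 2) lower and Cdh1, which encodes E-cadherin, higher. Cdh1 had 27.3 to 50.3 CPM in Lipo-TriTE, 13.1 to 43.2 in Lipo-BiTE and 3.07 to 5.12 in PBS tumours (9.27-fold in Lipo-TriTE and 6.20-fold in Lipo-BiTE against PBS, edgeR adjusted p of 0.00064 and 0.0029; the second was 3.90-fold without Lipo-BiTE 1). Between the Lipo groups edgeR called 0 of the 4 (1 higher and 0 lower at an unadjusted p under 0.05 and by DESeq2), and for Lipo-BiTE against PBS 0 were lower (1 unadjusted, 0 by DESeq2). Epcam did not pass the test in Lipo-TriTE against PBS (log2 0.83 ± 0.40, edgeR adjusted p = 0.13). The part of tissue makeup in the Cdh5 and Plvap values was not tested.

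The genes whose log2 CPM was most like that of Cdh5 over the 9 libraries were Atg9b, Rab6b, Grasp, Dlg4 and Plscr3, with a Pearson r of 0.975, 0.975, 0.971, 0.969 and 0.962 among 11744 genes of at least 1 CPM on average. Within groups the same genes had an r of 0.860 to 0.928. Erg and Tek themselves lay under that level, with at most 36 and 12 counts in any library. Among the same 11744 genes, those most like Erg were Klrc1, Vps37a, Ccl1, Hpgd and Klra7 (Pearson r of 0.939 to 0.964). This list was outside the plan, which named such genes for Cdh5 only, and Erg had 0 counts in every PBS library. Within groups these genes had an r with Erg of 0.474 to 0.687. The r of Cdh5 with the other endothelial genes ran from -0.75 for Kdr (-0.44 within groups) to 0.51 for Flt1 (-0.50 within groups), so the sign of the Flt1 value turned within groups.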

How the data were processed

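The authors deposited one table of raw read counts per gene, whole numbers in 9 columns with unequal sums. The sources used here name no aligner, counter, strand setting or build. Columns headed Untreated were taken as the PBS libraries of the same number, an inference from the one group left.

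Of 44806 entries, 16596 passed edgeR's filterByExpr. Where a name occurred more than once (53 names), the entry with the most counts kept it. Counts were fitted over 9 libraries, with 1 mean per group, by the edgeR 4.0.16 quasi-likelihood F test (robust, TMM, R 4.3.3), with Benjamini-Hochberg adjustment over all tested genes, calls at 0.05 and 6 residual degrees of freedom. SEs came from the fold change and its F statistic. Levels are CPM on TMM totals, and per kilobase of deposited gene length. DESeq2 1.42.0, other scalings and filters, a replicate block, fits of 2 groups, and leaving out each library were alternatives. Log2 CPM for correlations used a prior count of 2. The steps were tested on simulated data.

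The 8 genes and the 20 lists were chosen with earlier results of these data known. Up to 4 genes of a described list were named in each comparison, those with the smallest p. For Cdh5, Pecam1 and Erg, the 5 genes with the highest r to each were named, though the plan named such genes for Cdh5 only. Promoter windows and their coordinates are from RefSeq on GRCm38.p6, another build than that of the table, and were used for sequence only. No 2 libraries of a group were alike within sampling noise, with a chi-square of at least 5.09 per degree of freedom.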

Additional observations from a re-analysis of the deposited data

How the results depend on the processing

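Over 13 alternatives per comparison, the calls of Pecam1 against PBS, and of Kdr in Lipo-TriTE against PBS, kept their direction and their side of the threshold. Erg did so wherever it was tested, which was in 12 alternatives for Lipo-BiTE against PBS, since it did not pass the filter when only those groups were fitted. With 0 counts in every PBS library and entry through the Lipo libraries alone, its direction could not turn, so this is no sign of stability. Counts of the 8 endothelial genes called moved as follows. With no filter on low counts, 2 were lower in Lipo-TriTE against PBS, and 1 was higher and 2 lower in Lipo-TriTE against Lipo-BiTE. DESeq2 gave 1 higher and 2 lower in Lipo-TriTE against Lipo-BiTE. With only the groups of the contrast fitted, 1 was higher in Lipo-BiTE against PBS, and 0 were lower in Lipo-TriTE against Lipo-BiTE (Cdh5, edgeR adjusted p = 0.051). With 1 library left out, the number lower was 0 to 1 in both Lipo-TriTE comparisons. The numbers higher, 3 for Lipo-TriTE and 2 for Lipo-BiTE, each against PBS, and 0 between them, were the same each time. Both counts against PBS include Erg. Over all genes, the number lower in Lipo-BiTE against PBS was 988 by total counts, 839 with no filter and 995 by DESeq2. In Lipo-TriTE against Lipo-BiTE, 1538 were higher with no filter and 1475 by DESeq2, and 451, 1455 and 510 were lower by total counts, with no filter and with only 2 groups fitted. Leaving out 1 library gave 2575 to 2925 higher and 1391 to 2222 lower in Lipo-TriTE against PBS, 1455 to 2656 and 80 to 971 in Lipo-BiTE against PBS, then 276 to 901 and 158 to 1031 between Lipo-TriTE and Lipo-BiTE. Scaling by total counts shifted the median log2 fold change of all genes to -0.16 in Lipo-BiTE against PBS and to 0.11 between Lipo-TriTE and Lipo-BiTE. The causes were not tested.

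Signs turned only for uncalled log2 fold changes. Leaving out 1 library, Cdh5 in Lipo-BiTE against PBS ran from -0.075 to 0.40 (lowest without Lipo-BiTE 3). In Lipo-TriTE against PBS, Eng ran from -0.21 (without Lipo-TriTE 1) to 0.41 and Tie1 from -0.0084 (without Lipo-TriTE 3) to 0.41. In Lipo-TriTE against Lipo-BiTE, Erg ran from -0.49 (without Lipo-TriTE 3; -0.14 without Lipo-BiTE 1) to 0.67, Eng from -0.51 to 0.093 (without Lipo-TriTE 3), and Tie1 from -0.29 to 0.13 (without Lipo-TriTE 1; 0.091 without Lipo-BiTE 3). Tie1 was 0.019 there by total counts. Tek, tested with no filter, gave edgeR adjusted p-values of 0.64 to 0.89.

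With the replicate number as a block (replicate block), the number of genes lower in Lipo-BiTE against PBS was 282 in place of 534, and no call of the 8 endothelial genes changed. Named genes whose calls it ended were Cd34 in Lipo-TriTE against Lipo-BiTE (edgeR adjusted p = 0.061) and Notch3 in Lipo-TriTE against PBS (0.052). In Lipo-BiTE against PBS they were Pgf (edgeR adjusted p = 0.059), the fibroblast marker Lum (0.064) and the neutrophil marker Ly6g (0.1). Libraries of the same number did not deviate together (r of -0.19 to 0.08), so the numbers were not taken as pairs. Depth limits Tek, Erg and Tie1 most, which have 12, 36 and 37 counts at most in any library.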

Other observations

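Red cell genes differed between the libraries. Hba-a1, a haemoglobin alpha chain, had 1, 3 and 1 counts in Lipo-TriTE, 275, 8 and 39 in Lipo-BiTE and 0 in all 3 PBS libraries, and an unnamed entry described as haemoglobin beta-1 had 0, 7 and 13, then 225, 37 and 125, then 0 counts. Lipo-BiTE 1 was the highest library for both. Lipo-BiTE 1 had the lowest Cdh5 level of its group, 112.7 CPM. The other Lipo-BiTE libraries did not keep that order, since Lipo-BiTE 3 had more counts of both haemoglobins than Lipo-BiTE 2 and also more Cdh5 (212.3 against 159.8 CPM). A link between red cell genes and Cdh5 was not tested.

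Over the 9 libraries the genes whose log2 CPM was most like that of Pecam1, picked after their values were seen, were Ass1, Gpr132, Cnr2, Dock10 and Mbp (Pearson r of 0.994 to 0.997).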
